A study of Sus scrofa with 8 samples.

Results

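Semaphorins are guidance proteins, and plexins and neuropilins are the receptors that read them. The 10 genes described here are SEMA7A, its receptor PLXNC1, the semaphorins SEMA3A, SEMA3B, SEMA3C, SEMA3F and SEMA4D, and the receptors PLXNA1, NRP1 and NRP2. They were taken by gene name from the 22516 pig genes with RNA-seq values, and all 10 had counts and were tested. Transcripts were measured in the olfactory epithelium (OE), the nasal lining in which the sensory neurons of smell lie. The sows were 8 months old, in estrus, and offspring of Landrace boars and Rongchang sows. In the androstenone treatment group, 2 sows had Boarmate, a spray of mainly the boar pheromone androstenone, put into the nasal cavity. The 2 control sows received no solution, so that spraying itself and the pheromone cannot be told apart. The OE was collected after 30 min, and each side of the nose gave a library of its own, 4 per group. The sources used here do not tie the libraries to sows. The 4 libraries of a group were therefore used as replicates, and their p-values are too small if libraries of 1 sow resemble each other.

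Semaphorins are either secreted, as those named SEMA3, or held on the cell surface, as SEMA4D and SEMA7A. A secreted semaphorin is held by a neuropilin, and a plexin of the A type carries the signal into the cell, where it commonly makes a growing axon turn away. SEMA4D signals through plexins of the B type, and SEMA7A, which is tied to the membrane by a lipid anchor, binds PLXNC1 and integrins that contain ITGB1. In the olfactory system these proteins are known for sorting the axons of sensory neurons on their way to the olfactory bulb, and several of them also act on blood vessels, immune cells and bone cells.

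Control 1 had few deposited counts, 4177968 against 81579983 to 100685797 in the remaining 7 libraries. The paper lists for its Control 1 a number of clean reads within the range of the other libraries. The reason for the low count total was not tested. A gene with 3 counts stood at 0.616 CPM (counts scaled to 1000000 per library) in control 1 and at no more than 0.0451 CPM elsewhere. Control 4 stood apart. Its 10 most abundant genes held 29.4% of its counts, and its 13 listed bone and cartilage genes summed to 169799 CPM, against 3691 to 13689 in the other control libraries and 1277 to 4637 in the androstenone libraries. Of those 13 genes, 12 were called lower in the androstenone treatment group, with a median log2 fold change of -4.22. Markers of the labelled tissue were present at unequal levels. The 12 mature neuron genes summed to 308 to 412 CPM, led by STOML3 (48.8 to 224 CPM) and ANO2 (19.0 to 292 CPM), and among immature neuron genes STMN1 ranged from 39.6 to 107 CPM and NCAM1 from 3.92 to 373 CPM. Lower were CNGA2, a channel subunit of mature sensory neurons, at 0.737 to 12.2 CPM, and GAP43 of immature neurons at 0.349 to 1.55 CPM, which were chosen after their values were seen. The 373 CPM of NCAM1 was in control 4, where the immature neuron genes summed to 496 CPM, against at most 227 CPM elsewhere. NCAM1 was itself called lower after treatment (log2 fold change -3.96, edgeR's quasi-likelihood test, unadjusted p = 0.0103). FOXJ1 of ciliated respiratory cells ranged from 146 to 942 CPM.

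SEMA7A was called lower in the androstenone treatment group, while its receptor PLXNC1 was not called and had the higher mean there. Of the 10 genes, SEMA7A, SEMA3B and NRP2 were lower after treatment at the study's cutoff, and 0 were higher. The cutoff asks for an unadjusted p under 0.05 together with a log2 fold change of 1 or more in size. Over all 21318 genes tested, 4.38% were called lower and 2.04% higher. SEMA3B was the only one of the 10 whose androstenone libraries all lay below all control libraries, which 2.64% of all genes did. None of the 10 had all androstenone libraries above the control libraries, which 3.89% of all genes did. The median log2 fold change was -0.14 over the 10 genes and -0.021 over all genes tested. After Benjamini-Hochberg adjustment over all genes, 0 of the 10 and 0 of the 21318 genes passed with edgeR's quasi-likelihood test, which gave 2415 genes an unadjusted p below 0.05. With the same adjustment limma voom gave 0 genes, edgeR's exact test 157, its likelihood ratio test 200 and DESeq2 670. In bulk RNA, fewer cells of a type and less RNA per cell cannot be told apart, and this holds for every difference below.

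**Figure D1:**
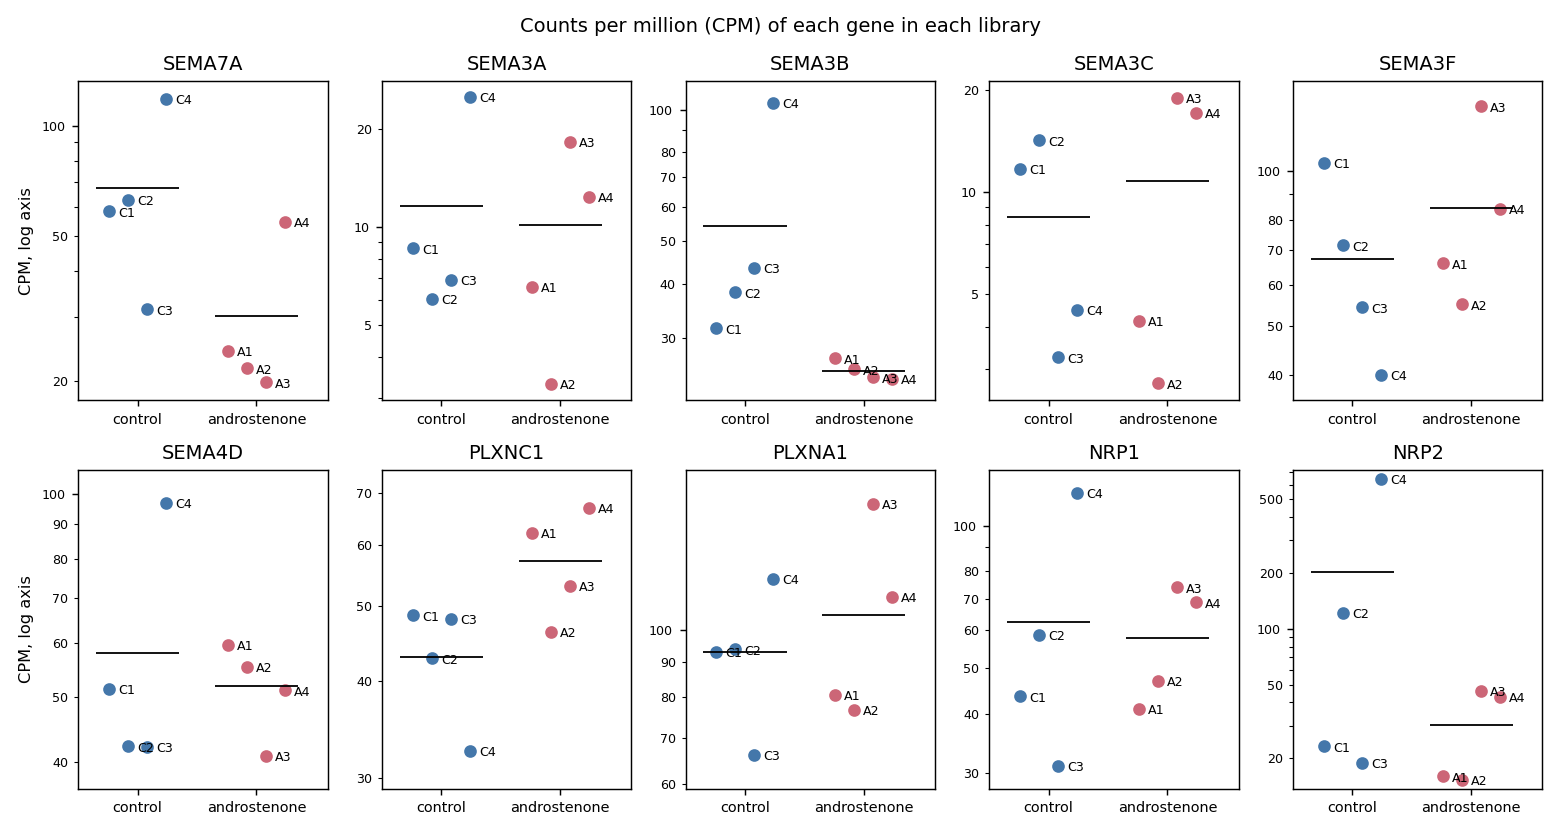
CPM of the 10 genes in each library on log axes that differ between panels. Blue points are control libraries (C1 to C4), red points androstenone libraries (A1 to A4), and lines are group means. SEMA3B separates the groups, SEMA7A does so except for C3 and A4, PLXNC1 leans the other way, and C4 is the highest point in 6 of the 10 panels.

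SEMA7A (chromosome 7, 59094919 to 59119534, Sscrofa11.1) had 58.3, 62.6, 31.4 and 118 CPM in control 1 to 4 and 24.2, 21.7, 19.9 and 54.6 CPM in androstenone 1 to 4. Control 1, 2 and 4 lay above every androstenone library, while control 3 lay below androstenone 4, so that the groups overlapped in this pair alone. The means were 67.6 ± 36.4 and 30.1 ± 16.5 CPM (SD, n = 4 libraries each), a 2.25-fold lower value after treatment. The log2 fold change was -1.17 with an SE of 0.46 and a 95% interval from -2.23 to -0.11. The unadjusted p was 0.0341, and the adjusted p was 0.420 with edgeR's quasi-likelihood test.

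PLXNC1 (chromosome 5, 88900238 to 89055837), the plexin that binds SEMA7A, had 48.7, 42.8, 48.1 and 32.5 CPM in control 1 to 4. It had 62.3, 46.3, 53.2 and 67.0 CPM in androstenone 1 to 4. In 3 of the 4 androstenone libraries it exceeded every control library, and androstenone 2 fell below control 1 and control 3. The means were 43.0 ± 7.50 and 57.2 ± 9.25 CPM (SD, n = 4 libraries each). The log2 fold change was 0.41 with an SE of 0.19 and a 95% interval from -0.020 to 0.84, and the unadjusted p of 0.0593 missed the threshold. With libraries as replicates, the interval leaves out a fall like that of SEMA7A as well as a 2-fold rise.

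Whether the pair changed differently was tested within each library by the log2 ratio of SEMA7A to PLXNC1 CPM, which does not depend on how libraries are scaled to each other. The ratio was 0.26, 0.55, -0.62 and 1.86 in control 1 to 4, and -1.37, -1.10, -1.42 and -0.30 in androstenone 1 to 4. The ratio of CPM does not say which gene is more abundant, since the genes differ in length. Control 3 lay below androstenone 4, and the other control libraries above all androstenone libraries. The mean ratio was 0.51 ± 1.03 and -1.04 ± 0.52 (SD), a difference of -1.56 (exact permutation test over 70 assignments, two-sided, p = 0.0571, where 0.0286 is the smallest p that 4 against 4 libraries allow). With TPM in place of CPM the difference was also -1.56 (exact permutation test, p = 0.0571). In every library the log2 ratio of TPM is that of CPM plus nearly the same shift for gene length. The same result was therefore fixed in advance and is no further test. Leaving out 1 library at a time gave differences from -1.94 to -1.11 (exact permutation test, p from 0.0571 to 0.114, of which 0.0571 is the smallest that 3 against 4 allow). The tendency of the ratio kept its direction throughout. With all libraries it did not pass 0.05, and with 1 library left out it could not.

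SEMA3B, a secreted semaphorin, was the steadiest of the 3 genes called lower. It had 31.6, 38.2, 43.5 and 104 CPM in control 1 to 4 and 27.0, 25.5, 24.5 and 24.3 CPM in androstenone 1 to 4. The groups did not overlap, although the lowest control library, control 1, was the one with few counts. Its exact 95% Poisson interval ran from 26.8 to 37.0 CPM and so reached below androstenone 1. The androstenone libraries were within a factor of 1.11 of each other and the control libraries within 3.28. The log2 fold change was -1.10 with an SE of 0.36 and a 95% interval from -1.93 to -0.28 (edgeR's quasi-likelihood test, unadjusted p = 0.0147, adjusted p = 0.416). SEMA3B lies on chromosome 13 at 32737100 to 32749633, and SEMA3F lies 65868 bases from it at 32641376 to 32671231 with 4 RefSeq genes between them, yet control 4 was the highest library for the one and the lowest for the other.

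SEMA3F, a secreted semaphorin that binds NRP2, had 104, 71.6, 54.3 and 40.1 CPM in control 1 to 4 and 66.1, 55.0, 133 and 84.3 CPM in androstenone 1 to 4. Androstenone 3 and control 1 were highest, and the groups overlapped widely. Its log2 fold change was 0.33 (SE 0.36, 95% interval -0.49 to 1.16, unadjusted p = 0.382).

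SEMA3A (chromosome 9, 95934937 to 96387950), the classical repellent that acts through NRP1, had 8.63, 6.02, 6.89 and 25.1 CPM in control 1 to 4 and 6.58, 3.30, 18.3 and 12.4 CPM in androstenone 1 to 4. Only control 4 exceeded all androstenone libraries, and the log2 fold change was -0.21 (SE 0.62, 95% interval -1.63 to 1.22, unadjusted p = 0.749). SEMA3C, 99114649 to 99432683 on the same chromosome and known for its part in heart and vessel development, had 11.7, 14.2, 3.26 and 4.50 CPM in control 1 to 4. It had 4.18, 2.73, 18.9 and 17.1 CPM in androstenone 1 to 4. Each group held a pair of high and a pair of low SEMA3C libraries, and the log2 fold change of 0.36 had a wide 95% interval from -1.29 to 2.01 (SE 0.72, unadjusted p = 0.629). At this spread neither a 2-fold fall nor a 2-fold rise of SEMA3A or SEMA3C could be told from no change.

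SEMA4D (chromosome 14, 957074 to 1078522), a membrane semaphorin of lymphocytes and osteoclasts, had 51.4, 42.2, 42.1 and 96.8 CPM in control 1 to 4 and 59.7, 55.4, 40.9 and 51.1 CPM in androstenone 1 to 4. Apart from control 4 the libraries of both groups lay between 40.9 and 59.7 CPM. The log2 fold change was -0.17 (SE 0.29, 95% interval -0.84 to 0.50, unadjusted p = 0.582). With libraries as replicates, that interval leaves out a 2-fold change in either direction. In control 4 the 8 listed osteoclast genes summed to 9082 CPM, against 260 to 877 in the other libraries, and the 12 lymphocyte genes were at their lowest, 197 CPM. Control 3 came next for the osteoclast genes, at 877 CPM, but had SEMA4D at only 42.1 CPM. The part of either cell type in the SEMA4D values was not tested.

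NRP2, the neuropilin that holds SEMA3F and also binds vascular growth factors, had the widest spread of the 10 genes. It had 23.2, 122, 18.9 and 646 CPM in control 1 to 4 and 16.0, 15.3, 46.3 and 43.0 CPM in androstenone 1 to 4. Control 4 held 79.7% of the summed CPM of the control group, and control 1 and control 3 lay below androstenone 3 and androstenone 4. The log2 fold change of -2.75 had an SE of 1.11 and a 95% interval from -5.30 to -0.21 (edgeR's quasi-likelihood test, unadjusted p = 0.0372, adjusted p = 0.426). NRP2 lies on chromosome 15 at 108974246 to 109092316.

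NRP1 (chromosome 10, 56280673 to 56430832), the neuropilin of SEMA3A, had 43.5, 58.7, 31.1 and 117 CPM in control 1 to 4 and 40.9, 47.0, 74.0 and 68.9 CPM in androstenone 1 to 4. The highest and the lowest library were both controls, and the log2 fold change was -0.12 (SE 0.41, 95% interval -1.05 to 0.81, unadjusted p = 0.775). PLXNA1 (chromosome 13, 73054434 to 73098786), a plexin that signals for neuropilins, had 93.1, 93.8, 66.2 and 118 CPM in control 1 to 4 and 80.6, 76.8, 152 and 111 CPM in androstenone 1 to 4. Its log2 fold change was 0.18 (SE 0.27, 95% interval -0.44 to 0.79, unadjusted p = 0.525). This interval too leaves out a 2-fold change in either direction if libraries are taken as replicates. Of the 4 receptors, NRP2 alone was called, and PLXNC1 came closest to a rise. The directions of NRP1 and SEMA3A turned when libraries were scaled by their totals alone, to 0.054 and 0.037.

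**Figure D2:**
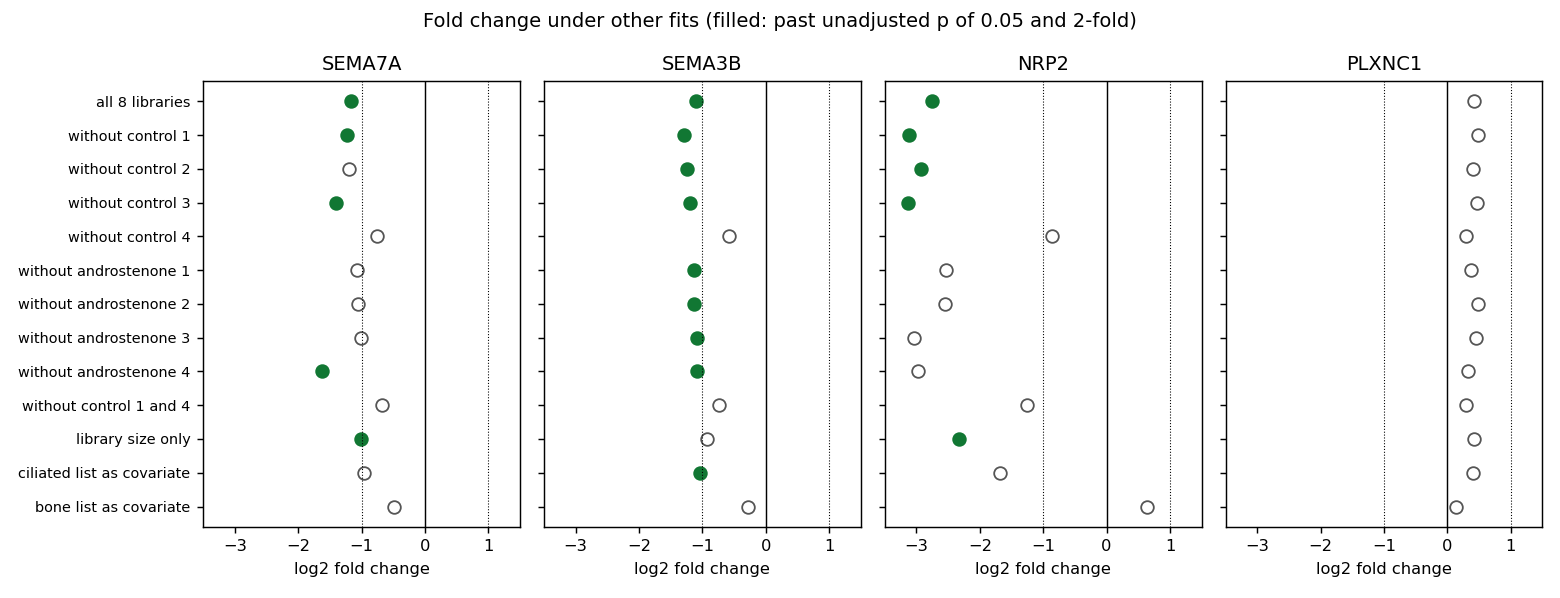
Log2 fold change (androstenone minus control) of SEMA7A, SEMA3B, NRP2 and PLXNC1 under 13 fits, 1 row each. Filled green points pass both an unadjusted p of 0.05 and a 2-fold change (dotted lines), open points do not. No fit without control 4 and no fit with the bone list holds a filled point.

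All 3 calls needed control 4. Without it SEMA7A had a log2 fold change of -0.75 (unadjusted p = 0.112), SEMA3B of -0.59 (unadjusted p = 0.00704) and NRP2 of -0.86 (unadjusted p = 0.276), so that SEMA3B still passed the p threshold at a change under 2-fold. Without control 4 the uncalled SEMA3A, SEMA4D and NRP1 turned direction, to 0.50, 0.19 and 0.38. SEMA3C and PLXNA1 turned without androstenone 3, to -0.063 and -0.052, SEMA3A without androstenone 2, to 0.068, and NRP1 without androstenone 1, to 0.013. In the 3 remaining control libraries SEMA3B averaged 37.8 ± 5.96 CPM and SEMA7A 50.8 ± 16.9 CPM (SD), against 25.3 ± 1.27 and 30.1 ± 16.5 CPM in the androstenone libraries. Of the 8 fits that each left out 1 library, SEMA3B was called in 7, SEMA7A in 3 and NRP2 in 3, and SEMA3B was under the p threshold in all 8. SEMA7A lost its call without control 2 (log2 fold change -1.21, unadjusted p = 0.0531), androstenone 1 (-1.08, unadjusted p = 0.0794), androstenone 2 (-1.06, unadjusted p = 0.0778) and androstenone 3 (-1.02, unadjusted p = 0.0840) too. NRP2 lost it when any 1 androstenone library was left out, at unadjusted p from 0.0527 to 0.0845. PLXNC1 stayed between 0.29 and 0.48 and was called in 0 of the 8 fits, with 1 unadjusted p below 0.05, without androstenone 2 (0.0444).

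Since the sow of each library is not given, counts were also summed per sow under each of the 9 ways in which the 4 libraries of both groups can form 2 sows. SEMA3B was called lower under all 9, with log2 fold changes from -1.49 to -1.04 and unadjusted p from 0.0140 to 0.0413. NRP2 was called under 6 of the 9 and SEMA7A under 3, at -1.43 to -0.93 and unadjusted p from 0.0235 to 0.186. PLXNC1 stayed at 0.38 to 0.55 with unadjusted p from 0.0454 to 0.223. Control 4 is part of every pairing, so that these fits do not lift the dependence on it. Control 1, with 4177968 counts, adds little to the sum of any sow, which is then mostly its other library.

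**Figure D3:**
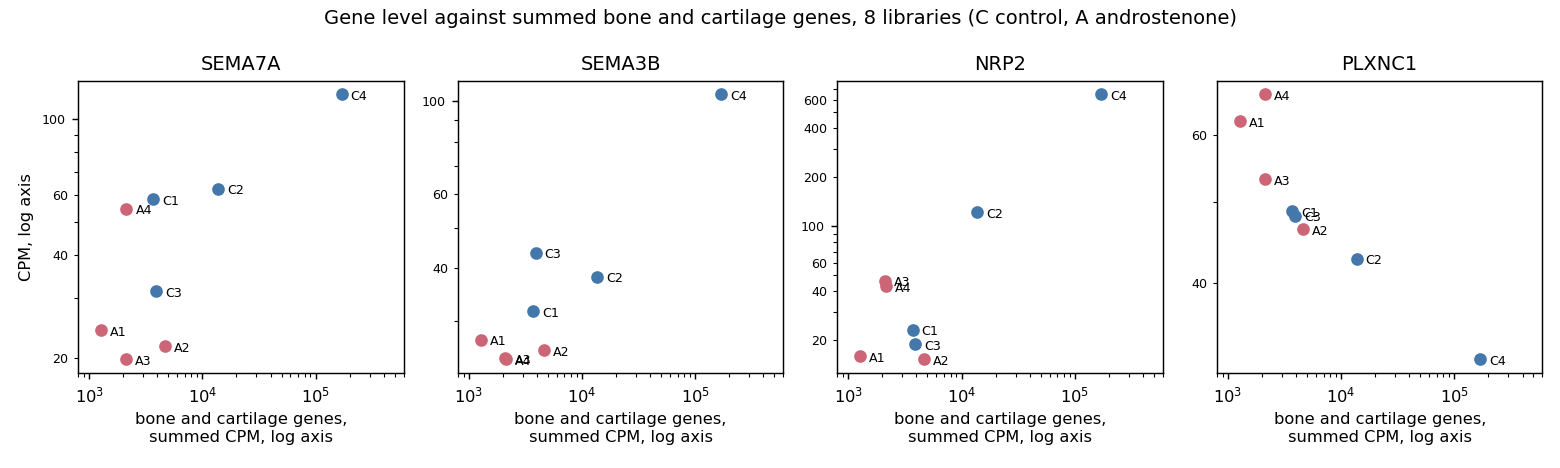
CPM of SEMA7A, SEMA3B, NRP2 and PLXNC1 against the summed CPM of 13 bone and cartilage genes in each library, both on log axes, with control libraries in blue (C) and androstenone libraries in red (A). C4 lies far to the right, at the top for SEMA7A, SEMA3B and NRP2 and at the bottom for PLXNC1.

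The genes called lower were highest in control 4, where bone and cartilage genes were highest. For SEMA7A and NRP2 control 4 came first and control 2 second, as in the summed bone and cartilage list, and for SEMA3B control 4 came first. Androstenone 2 came next in that list, at 4637 CPM, but had NRP2 at its lowest, 15.3 CPM, and SEMA7A at 21.7 CPM. With the mean level of that list as a covariate, chosen after the values were seen, the log2 fold change was -0.48 for SEMA7A (unadjusted p = 0.404), -0.28 for SEMA3B (unadjusted p = 0.272), 0.64 for NRP2 (unadjusted p = 0.563) and 0.13 for PLXNC1 (unadjusted p = 0.506). That covariate stood at 4.30 in control 4 and from -1.68 to 0.79 elsewhere, so that the fit mostly sets control 4 apart. The list itself differed between the groups, so that this fit cannot separate treatment from bone content. The summed fibroblast genes moved likewise, with 2 of 8 called lower and a level of 194531 CPM in control 4 against 1515 to 25896 in the others. Most of the sum in control 4 was COL1A2 (156373 CPM), a collagen gene as is COL1A1 of the bone list. The fibroblast gene DCN had at most 2605 CPM in a control library and was not called (edgeR's quasi-likelihood test, unadjusted p = 0.117). A fibroblast signal apart from bone is therefore not shown. With the ciliated list as a covariate, of which 0 of 13 genes were called, SEMA3B was still called (-1.04, unadjusted p = 0.0217), while SEMA7A fell under the 2-fold cutoff (-0.97, unadjusted p = 0.0196) and NRP2 missed the p threshold (-1.69, unadjusted p = 0.0707).

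In their 4 highest libraries NRP1, NRP2 and SEMA3F had the same order as lists of other cell types, a description chosen after the values were seen. NRP1 was highest in control 4, androstenone 3, androstenone 4 and control 2, in the same order as the summed endothelial genes, which ranged from 65.8 to 602 CPM. SEMA3F was highest in androstenone 3, control 1, androstenone 4 and control 2, the order of the summed basal cell genes, which ranged from 251 to 1750 CPM. NRP2 was highest in control 4, control 2, androstenone 3 and androstenone 4, the order of the summed fibroblast genes, which were mostly COL1A2 in control 4. In the 4 lower libraries the orders differed. Androstenone 2 had the lowest endothelial and basal sums but was the lowest library for neither NRP1 nor SEMA3F. Only a few pairs of member and list, picked by hand, were compared in this way. The order of SEMA4D departed from that of the osteoclast genes after control 4. That of NRP2 departed from the bone and cartilage genes after control 4 and control 2. SEMA3C was high in those libraries whose ciliated genes summed to 820 to 1816 CPM, except for control 4, where SEMA3C was at 4.50 CPM and the ciliated sum at 900.4 CPM. Among the 9 endothelial, 6 basal, 12 lymphocyte, 10 macrophage, 8 glial and 12 mature neuron genes tested 0 were called between the groups. The glial list still had a median log2 fold change of -1.63, with 6 of 8 genes below 0, and the endothelial list one of -0.49, with 8 of 9 below 0. Called lower were 7 of 8 osteoclast genes, 2 of 13 immature neuron genes, 2 of 9 gland genes and 1 of 8 erythroid genes, and 1 gland gene was called higher. Over all genes tested 4.38% were called lower and 2.04% higher, shares that 0, 1 or 2 calls in lists this short cannot resolve. The share of these cell types in the values of the members was not tested.

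**Figure D4:**
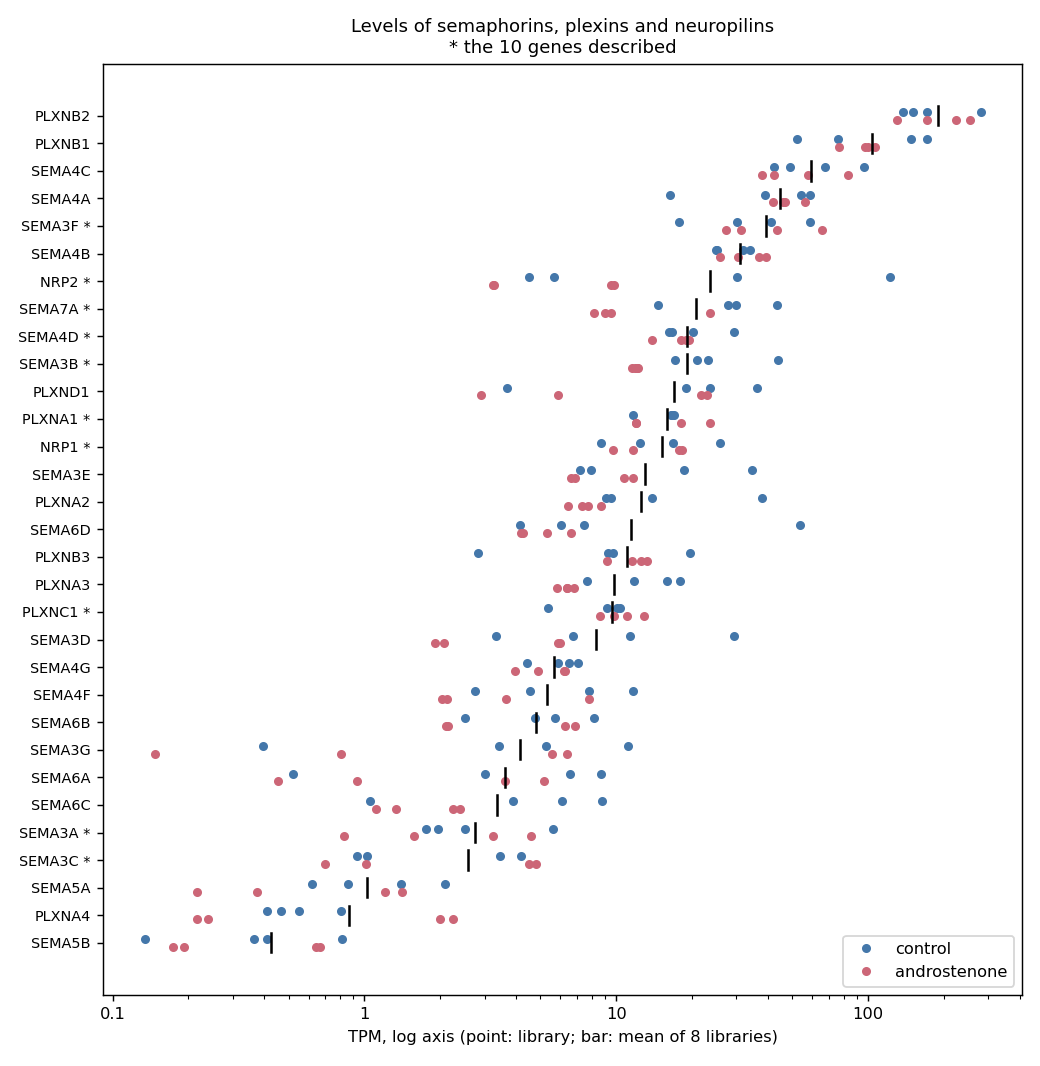
TPM, values scaled for transcript length, of the 20 semaphorins, 9 plexins and 2 neuropilins on a log axis, ordered by the mean over the 8 libraries (bar), with blue points for control and red points for androstenone libraries. The 10 genes described (*) range from SEMA3F at a mean of 39.4 to SEMA3C at 2.58.

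Levels of different genes were compared in TPM, which are scaled for transcript length. Among the 10 genes the mean over the 8 libraries was highest for SEMA3F (39.4 TPM), followed by NRP2 (23.5), SEMA7A (20.7), SEMA4D (19.1), SEMA3B (19.1), PLXNA1 (15.9), NRP1 (15.1), PLXNC1 (9.65), SEMA3A (2.76) and SEMA3C (2.58). All 9 pairs of neighbours in this order overlapped in their ranges over the libraries, from 17.7 to 65.6 TPM for SEMA3F and from 3.23 to 122 TPM for NRP2. SEMA7A had 29.0 ± 11.9 TPM in control and 12.5 ± 7.30 TPM in androstenone libraries (SD, n = 4 each), and PLXNC1 had 8.73 ± 2.30 and 10.6 ± 1.83 TPM. Receptors of SEMA4D and of other membrane semaphorins were far more abundant, with PLXNB2 at 189.7 and PLXNB1 at 103 TPM, the first and second of the 31 genes of these families, and the membrane semaphorin SEMA4C next at 59.4 TPM. SEMA4C, SEMA4A and SEMA4B, the most abundant semaphorins outside the 10, had log2 fold changes of -0.072, 0.34 and 0.31 and did not pass the test, nor did PLXNB2 (0.19), PLXNB1 (-0.080) and PLXND1 (-0.61). The integrin subunit ITGB1, through which SEMA7A can also signal, stood at 122 TPM and did not pass the test, with a log2 fold change of -0.31 (SE 0.46, unadjusted p = 0.515).

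**Figure D5:**
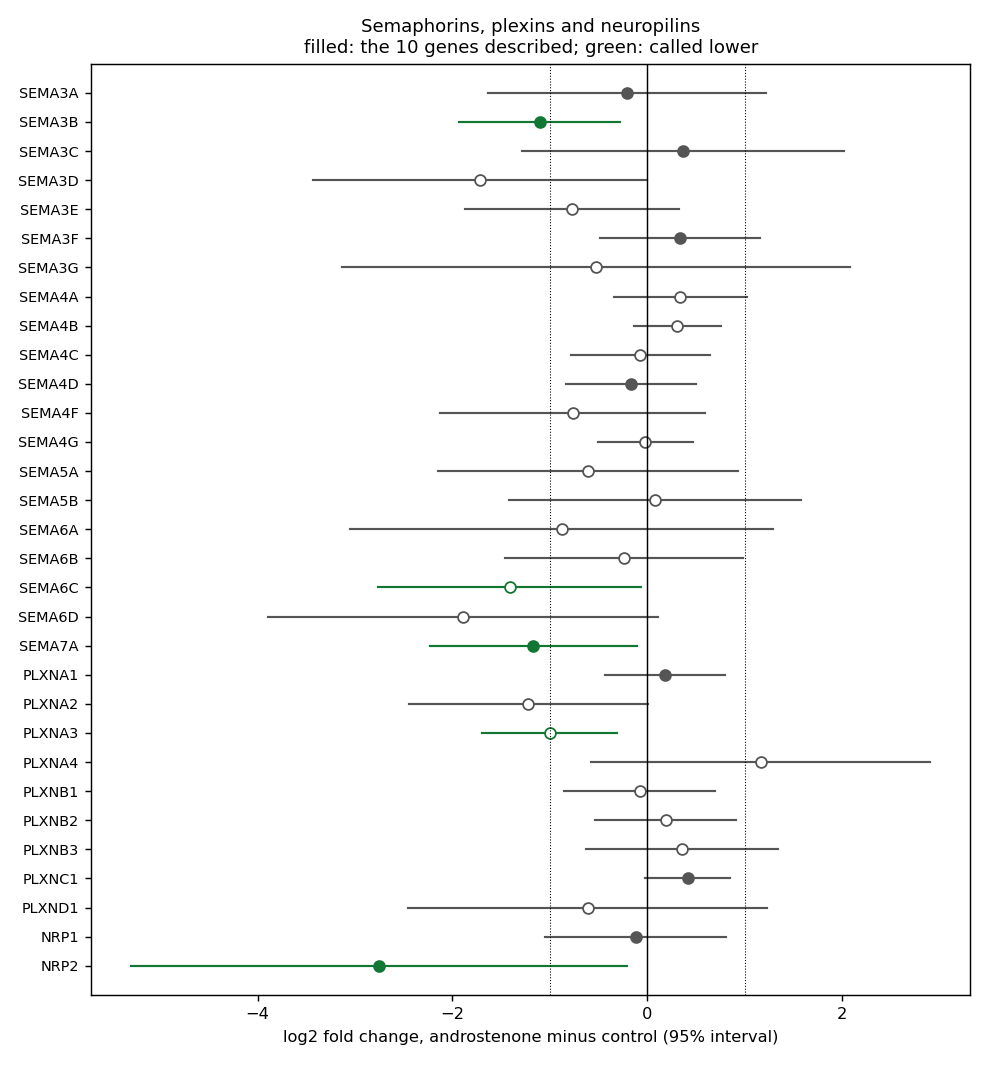
Log2 fold change (androstenone minus control) with its 95% interval for the 20 semaphorins, 9 plexins and 2 neuropilins, with dotted lines at a 2-fold change. Filled points are the 10 genes described and green marks the 5 genes called lower, SEMA3B, SEMA6C, SEMA7A, PLXNA3 and NRP2.

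Across the whole families, 3 of 20 semaphorins and 1 of 9 plexins were called lower and 0 higher, beside 4.38% and 2.04% of all genes tested. Of the semaphorins 15 lay below 0, with a median log2 fold change of -0.38, while the plexins had a median of 0.18. Outside the 10 genes, SEMA6C was the only one of 14 semaphorins called, and all 4 genes named SEMA6, which are membrane semaphorins that bind plexins of the A type, lay below 0. SEMA6C had 10.7, 23.6, 2.92 and 21.4 CPM in control 1 to 4 and 4.36, 3.48, 7.53 and 6.74 CPM in androstenone 1 to 4. Its log2 fold change was -1.41 (SE 0.59, unadjusted p = 0.0421), and control 3 was its lowest library. PLXNA3, a plexin that serves NRP2 in the response to SEMA3F, was the only one of 7 other plexins called. It had 46.8, 63.0, 31.1 and 92.2 CPM in control 1 to 4 and 28.0, 29.1, 29.4 and 30.0 CPM in androstenone 1 to 4. Its groups did not overlap, and the log2 fold change was -1.003 (SE 0.30, unadjusted p = 0.00983). Of 14 further receptors and co-receptors 0 were called, and the most abundant after ITGB1, the immune adaptor TYROBP and the plexin-B partner ERBB2, had log2 fold changes of 0.0086 and 0.0025.

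Of the 29 matched proteins that carry semaphorin signals inside the cell, 4 were called lower and 0 higher (4.38% and 2.04% of all genes), with a median log2 fold change of -0.15. With limma voom and with either TPM scale 1 of the 29 was called. DPYSL2, the collapsin response mediator through which SEMA3A acts on microtubules, had 86.3, 90.0, 79.6 and 161 CPM in control 1 to 4 and 30.0, 21.3, 53.1 and 55.7 CPM in androstenone 1 to 4. The groups did not overlap, and the log2 fold change was -1.38 (SE 0.37, 95% interval -2.22 to -0.54, unadjusted p = 0.00496). Its relative DPYSL3 was at -2.13 (unadjusted p = 0.0384), and DPYSL4 at -2.17 (unadjusted p = 0.0347) with at most 1.31 CPM in any library. MICAL3, of the enzymes that oxidize actin below plexins, was at -1.03 (unadjusted p = 0.0257). The most abundant of the list, the actin regulator CFL1 and the GTPases RHOA and RAC1, had log2 fold changes of 0.15, 0.012 and 0.14 and did not pass the test.

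Calls were also made in other guidance families. Of 37 ephrins, Eph receptors, netrins, slits, robos and related genes, 3 were called lower and 1 higher, shares not far from the 4.38% and 2.04% of all genes. Of the 37, 27 lay below 0, and the median log2 fold change was -0.46. EPHB2 had 6.57, 11.6, 5.47 and 7.68 CPM in control 1 to 4 and 2.72, 2.72, 3.58 and 2.40 CPM in androstenone 1 to 4, without overlap, at a log2 fold change of -1.46 (SE 0.30, unadjusted p = 0.000934). EPHA1 was the gene that rose, from 15.6, 11.7, 10.6 and 5.26 CPM in control 1 to 4 to 19.2, 21.5, 37.9 and 26.5 CPM in androstenone 1 to 4, without overlap (log2 fold change 1.29, SE 0.36, unadjusted p = 0.00600). EPHA3 (-3.65, unadjusted p = 0.00506) and the secreted repellent SLIT3 (-3.25, unadjusted p = 0.0284) were called lower with overlapping groups. Of these 10 called genes outside the members, DPYSL2, EPHB2, EPHA3 and EPHA1 kept their call with each of the 8 libraries left out in turn. SEMA6C, PLXNA3, DPYSL3, DPYSL4, MICAL3 and SLIT3 lost it without control 4, without androstenone 1 and without 1 to 3 further libraries. Without control 4 the log2 fold change was -2.03 for DPYSL4 and -1.17 for SEMA6C, and -0.69 for PLXNA3, -1.08 for DPYSL3, -0.46 for MICAL3 and -0.93 for SLIT3. The 3 most abundant of these guidance genes, EFNA1, RGMA and EFNB1, had log2 fold changes of -0.45, 0.47 and -0.35 and did not pass the test. With the bone and cartilage list as a covariate EPHB2 alone was still called (-1.39, unadjusted p = 0.00845).

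By pattern over the libraries, no other member was among the 5 genes nearest to SEMA7A. Likeness was the root mean square difference of mean-centred log2 CPM over the 8 libraries, among 15944 genes with a mean of at least 1 CPM. The nearest genes to SEMA7A were GRB14 (0.280), ENSSSCG00000010056 (0.284), SNX22 (0.339), PCDHGA6 (0.347) and GALNT6 (0.369). SEMA3B was at 0.579, with 358 genes closer, NRP1 at 0.719 with 1746 closer, and PLXNC1 at 1.05 with 10152 closer. NRP2, although called lower with SEMA7A, was at 1.19 with 12080 genes closer. The nearest genes to PLXNC1 were RAB27A (0.117), IL18 (0.137), ADAR (0.142), CRTAM (0.143) and HERPUD1 (0.145), all with higher means in the androstenone libraries. Of these RAB27A, a GTPase of secretory granules, had 24.3 and 35.2 CPM on average in the control and androstenone libraries, and none of the 10 neighbours passed the cutoff.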

How the data were processed

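RNA-seq of 8 OE libraries was used, 4 control and 4 androstenone. The authors filtered reads by quality (fastp 0.23.1) and assigned them to pig transcripts (Kallisto 0.48.0; Ensembl release 108, Sscrofa11.1). The deposited files hold an unnormalized estimated count per gene, often fractional, and a TPM value, corrected for length and depth by the authors. The sources used here do not say how transcripts became genes.

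Counts were rounded, and genes with at least 1 count over all libraries were tested with edgeR 4.0.16 (TMM, quasi-likelihood test, condition only) in R 4.3.3. A call is an unadjusted p under 0.05 and a change of 2-fold or more, the study's cutoff. P-values were adjusted by Benjamini-Hochberg over all genes. CPM use the library total times its TMM factor. Control 1 has the widest counting error, and counting intervals cover that error only, since PCR copies are not independent molecules. No library pair was within sampling noise of another. Pairs were compared by the mean squared count difference per gene, scaled so that sampling noise gives 1. Androstenone 1 and 2 were at 111 and androstenone 3 and 4 at 117, while the other androstenone pairs were at 735 to 1123. Control 3 was nearer to androstenone 1 and 2 (377 and 361) than to control 2 and 4 (1427 and 3002). Control 2 was nearer to androstenone 3 and 4 (both 576) than to control 3 and 4 (1427 and 1590). The measure grows with counts, so that pairs with control 1 (35.2 to 266) cannot be set beside these. Whether the close androstenone pairs are sows was not tested.

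The alternatives were RLE factors, library size only, filterByExpr, unrounded counts, edgeR's exact and likelihood ratio tests, DESeq2 1.42.0, limma 3.58.1 (voom, log2(TPM + 0.1), log2(TPM + 1)), a replicate block, counts summed per sow, libraries left out, and the ciliated list as a covariate. The bone and cartilage covariate was added later. Ratios were tested with scipy 1.17.1.

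Names matched 15527 of 22516 identifiers, and coordinates are those of RefSeq for Sscrofa11.1. Named were the 10 genes, from each of the 5 pathway lists the 3 genes of highest mean TPM and all genes called, from each cell type list the 2 of highest TPM, and the 5 nearest genes by pattern. Of the cell type genes the text prints the neuron markers, FOXJ1, and CNGA2 and GAP43, which fall outside this rule. The members and lists were chosen with earlier results of these data known.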

Additional observations from a re-analysis of the deposited data

Results flagged for a closer look

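In 5 of the 22 groups of 4 values examined (each member and the SEMA7A to PLXNC1 ratio, in each group), 1 library stood apart from the other 3 by Dixon's ratio, and chance gives about 1 in 20. Control 4 stood apart for SEMA3A (25.1 CPM), SEMA3B (104 CPM), SEMA4D (96.8 CPM) and NRP2 (646 CPM). For SEMA7A it was androstenone 4 (54.6 CPM), the library that alone overlapped the control group. Control 4 was the highest library for 6 of the 10 members and the lowest for 2, PLXNC1 and SEMA3F, against 20.1% and 14.5% of all genes tested. It also held the most counts of bone, cartilage, osteoclast and fibroblast genes, whose part in these values was not tested.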

How the results depend on the processing

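The study had 4 sows, and which libraries share a sow is not known, so that a p over animals can be given only as a range over the 9 possible pairings. Control 1 had few deposited counts, and control 4 carried most of the bone and cartilage signal. PLXNC1 kept its direction and its side of the cutoff in all 24 alternatives, from 0.13 to 0.48, and 0 members were called higher in any. SEMA7A stayed below 0 in all 24, from -1.63 to -0.48, and lost its call in 9.

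The number of members called lower moved from 3 to 1 with log2(TPM + 1), the replicate block, the ciliated list as a covariate and the sow pairing with fewest calls, and to 0 without control 1 and control 4 together and with the bone and cartilage list as a covariate. With 1 library left out it ranged from 0 to 3. SEMA7A was at -0.68 without control 1 and control 4, at -0.97 with the ciliated list, at -0.48 with the bone and cartilage list and at -0.97 in the sow pairing of largest p, and ranged from -1.63 to -0.75 with 1 library left out. SEMA3B was at -0.73 without control 1 and control 4, -0.93 by library size only, -0.99 with log2(TPM + 1), -0.93 with the replicate block and -0.28 with the bone list. NRP2 was at -1.85 with limma voom, at -1.63 and -1.53 with log2(TPM + 0.1) and log2(TPM + 1), and -1.26 without control 1 and control 4.

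Directions turned for 7 genes that were mostly near 0. With the bone list NRP2 was at 0.64, NRP1 at 0.71, SEMA3A at 0.68, SEMA4D at 0.43, SEMA3C at -0.48 and SEMA3F at -0.23. Without control 1 and control 4 NRP1 was at 0.32, SEMA3A at 0.60 and SEMA4D at 0.26. By library size only NRP1 was at 0.054 and SEMA3A at 0.037. NRP1 was at 0.098 with the ciliated list and at 0.0057 with the replicate block, and SEMA3A at 0.0034 in the sow pairing of largest p. With 1 library left out NRP1 ranged from -0.35 to 0.38, SEMA3A from -0.66 to 0.50, SEMA4D from -0.30 to 0.19, SEMA3C from -0.063 to 0.77 and PLXNA1 from -0.052 to 0.32. The causes of these shifts were not tested.

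With the replicate block SEMA7A was at -1.14 (edgeR's quasi-likelihood test, unadjusted p = 0.00237) and NRP2 at -1.61. The numbers did not pair the libraries: deviations from the group means of same-numbered libraries correlated over 15945 genes at -0.052, -0.58, -0.67 and 0.20.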
